A study of Mus musculus with 16 samples.

Results

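The comparison described here set 5 samples of double mutant mammary organoids against 4 samples of HER2 mutant mammary organoids, which were 9 of the 16 samples of the series. Members were chosen by their labels alone, as all samples of both genotypes. Organoids are tissue cells grown as small multicellular bodies in culture, and gene expression was measured by RNA sequencing as read counts per gene. HER2 mutant organoids carried a HER2 mutation and double mutant organoids carried a HER2 and a PIK3CA mutation, and the series title names these alleles as V777L of HER2 and H1047R of PIK3CA. Both groups came from mouse breast tumors and were grown in the same medium, supplemented with epidermal growth factor and with conditioned medium that supplied Rspo1 and Noggin. The remaining samples, 4 PIK3CA mutant from breast tumors and 3 WT from normal breast, served for reference values. Age, strain, the way each mutation was introduced, its promoter, the cells that carried it, and whether samples of a genotype came from separate animals were not given in the sources used here. P-values therefore measured the spread between these samples, which may in part be technical.

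HER2, the product of mouse Erbb2, belongs as a receptor tyrosine kinase to the epidermal growth factor receptor family, and its partner receptor Erbb3 links it to phosphoinositide 3-kinase. PIK3CA encodes a catalytic subunit of that kinase, whose lipid product recruits and activates the kinase AKT. In the mammary gland, luminal alveolar cells make milk proteins under prolactin, which acts through the kinase JAK2 and the transcription factor STAT5. Caseins are the main milk proteins, and Cish and Socs2 are feedback genes that STAT5 induces. Basal cells surround the luminal cells and carry the keratins Krt5 and Krt14. Retinoic acid, made from vitamin A, acts on genes through nuclear receptors that bind paired DNA half-sites, and the enzyme Cyp26a1 degrades it.

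The casein gene Csn2 had the largest decrease of all genes called, and a gene of retinoid metabolism was among those that rose, so the sequences before their gene starts are shown. Each sequence is the 250 bases before the RefSeq gene start in GRCm38.p6, read 5′ to 3′ on the gene's strand. The gene positions given later are from GENCODE, whose starts can differ. Those of Csn2 (87699630) and Cyp26a1 (37697798) lie inside the windows shown, so most of the Csn2 window overlaps its GENCODE gene. For the milk genes, capitals mark TTCNNNGAA, the letters of the STAT5 motif, searched on both strands.
Csn2, chr5:87699426-87699675, minus strand: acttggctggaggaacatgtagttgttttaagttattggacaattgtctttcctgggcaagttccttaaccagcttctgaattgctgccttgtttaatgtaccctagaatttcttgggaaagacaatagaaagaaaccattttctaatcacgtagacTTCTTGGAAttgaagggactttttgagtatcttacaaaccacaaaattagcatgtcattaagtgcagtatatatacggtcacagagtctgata
Csn1s1, chr5:87665958-87666207, plus strand: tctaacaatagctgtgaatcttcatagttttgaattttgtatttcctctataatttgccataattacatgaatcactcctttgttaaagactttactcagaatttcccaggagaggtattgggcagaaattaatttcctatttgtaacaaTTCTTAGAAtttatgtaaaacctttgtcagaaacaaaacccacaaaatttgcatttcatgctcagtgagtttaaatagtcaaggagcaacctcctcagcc
Glycam1, chr15:103565082-103565331, minus strand: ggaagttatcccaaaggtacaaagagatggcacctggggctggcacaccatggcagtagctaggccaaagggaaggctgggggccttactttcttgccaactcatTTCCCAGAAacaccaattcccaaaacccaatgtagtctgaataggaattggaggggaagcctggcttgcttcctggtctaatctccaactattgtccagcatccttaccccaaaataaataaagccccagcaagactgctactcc
Csn1s2a, chr5:87774200-87774449, plus strand: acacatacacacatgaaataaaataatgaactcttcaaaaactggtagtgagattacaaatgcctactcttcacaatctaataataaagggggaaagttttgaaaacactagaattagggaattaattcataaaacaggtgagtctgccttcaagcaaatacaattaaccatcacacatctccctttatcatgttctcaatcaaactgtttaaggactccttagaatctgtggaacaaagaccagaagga
Cyp26a1, chr19:37697558-37697807, plus strand: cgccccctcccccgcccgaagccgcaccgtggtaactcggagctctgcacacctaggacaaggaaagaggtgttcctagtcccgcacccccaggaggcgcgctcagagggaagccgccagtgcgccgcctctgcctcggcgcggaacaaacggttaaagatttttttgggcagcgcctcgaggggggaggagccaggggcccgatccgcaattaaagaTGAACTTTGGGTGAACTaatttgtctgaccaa
The match began 93 bases before the gene start in Csn2, 100 in Csn1s1 and 145 in Glycam1, and the Csn1s2a window held none. Of 32851 windows of the same length, 2306 (7.02%) held TTCNNNGAA. In Cyp26a1, capitals mark a direct repeat of AGTTCA with a spacer of 5 bases, which lay on the reverse strand and began 32 bases before the gene start. That arrangement was searched because it is known from this promoter, and 7 of the 32851 windows (0.0213%) held it. The windows of Wap and Cish held no match to TTCNNNGAA, and those of Rbp7 and Stra6 none to the direct repeat. Csn3, Csn1s2b, Btn1a1 and Socs2 had no window in the source used, so they were not searched. A match is a description of the letters and not of binding.

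HER2 mutant samples held 45545182 to 52938963 counts and double mutant samples 50771543 to 56507646. Epithelial markers were high in all 9 samples, with Epcam at 492 to 608 CPM (counts per library total, TMM-scaled) in HER2 mutant and 496 to 699 CPM in double mutant organoids. The endothelial marker Cdh5 stayed at or below 0.308 CPM and the adipocyte marker Adipoq at or below 0.0839 CPM. Both genotypes were more variable than the reference genotypes. The median standard deviation (SD) of a gene on the log2 CPM scale was 0.486 in HER2 mutant and 0.461 in double mutant samples, against 0.263 in PIK3CA mutant and 0.255 in WT samples. HER2 mutant samples also stood apart by chromosome. Over 9726 well-expressed genes, the median log2 difference of a chromosome's genes from the mean of the WT and PIK3CA mutant samples was beyond 0.15 on 19 of 20 chromosomes in HER2 mutant replicate 1, from -0.309 on chromosome 3 to 0.544 on chromosome X. In HER2 mutant replicate 4 it was -0.674 on chromosome 4 and 0.433 on chromosome 6. No chromosome of HER2 mutant replicates 2 and 3, or of a double mutant, PIK3CA mutant or WT sample, was beyond 0.15. DNA copy number was not measured, and its part in these shifts was not tested. Results below were recomputed with the median of each 20 Mb stretch taken out of every sample, called the chromosome offset, and without HER2 mutant replicates 1 and 4.

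**Figure D1:**
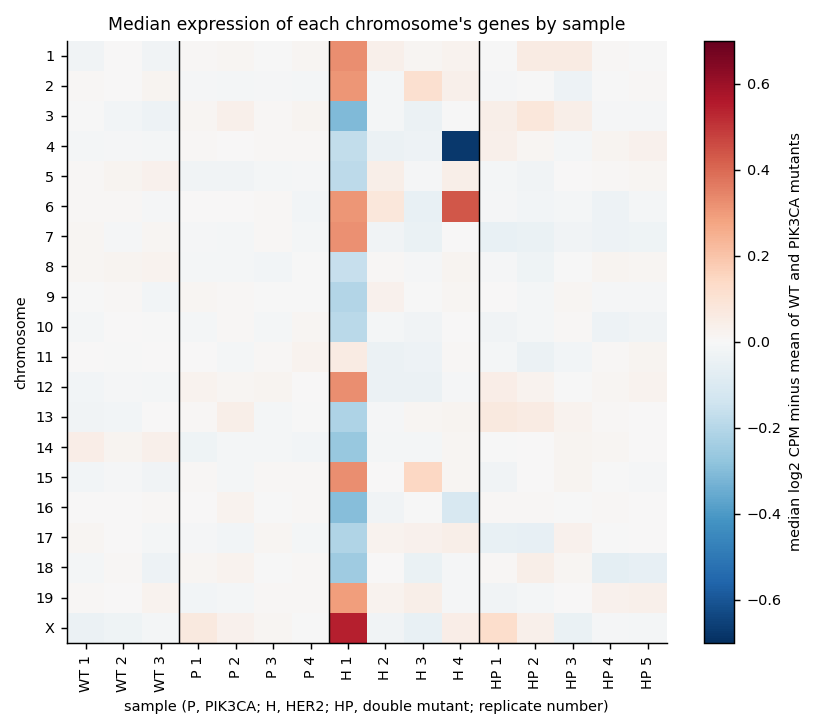
Median log2 CPM of each chromosome's genes minus the mean of the WT and PIK3CA mutant samples, by sample (columns, grouped by genotype) and chromosome (rows), as a color scale. HER2 mutant replicate 1 is shifted on 19 of 20 chromosomes and HER2 mutant replicate 4 on chromosomes 4 and 6, while the 5 double mutant samples stay within 0.15.

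Of the mutated genes, Pik3ca was higher in the double mutant, and Erbb2 was lower by a margin that did not hold in most other fits. Erbb2 (ENSMUSG00000062312) spans 98412470 to 98437716 of chromosome 11 in GRCm38 and overlaps Mien1. It had 3380, 2700, 4630 and 3690 CPM in HER2 mutant replicates 1 to 4 and 1500, 2750, 2710, 1550 and 1650 CPM in double mutant replicates 1 to 5. All 9 samples were far above the 145 to 188 CPM of the WT and PIK3CA mutant samples, and the groups overlapped through HER2 mutant replicate 2 and double mutant replicates 2 and 3. The log2 fold change, double minus HER2 mutant, was -0.83 (SE 0.207, edgeR adjusted p 0.0483). Its adjusted p missed the threshold without HER2 mutant replicates 1 and 4 (adjusted p 0.0943), with the chromosome offset (0.0695), in 6 of the 9 fits that left out a replicate and in a fit of the 9 samples alone (0.262). Pik3ca (ENSMUSG00000027665, chromosome 3, 32397671 to 32468486) had 61.4, 67.4, 74.1 and 65 CPM in the HER2 mutant samples and 117, 122, 109, 112 and 114 CPM in the double mutant samples. The groups did not overlap, and the log2 fold change of 0.78 (SE 0.0945, edgeR adjusted p 0.0011) held in the fit of the 9 samples alone (adjusted p 0.0389). PIK3CA mutant samples had 91.6 to 111 CPM and WT samples 75.9 to 85.7 CPM. Counts per gene sum both alleles.

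Double mutant organoids had far lower transcripts of the casein genes Csn2 and Csn1s2a and of the milk gene Btn1a1 than HER2 mutant organoids, while the other caseins had no call. Epithelial sodium channel subunits and the copper transporter Atp7b were also lower. They had higher Vcam1, Rbp7, Igfbp2, Igfbp3, Krt5 and Cyp26a1. Of 24252 genes tested, 606 (2.5%) passed an adjusted p of 0.05, 249 higher (1.03%) and 357 lower (1.47%) in the double mutant. The median absolute log2 fold change of these 606 genes was 1.73, with quartiles of 0.91 and 3.05, and 262 were beyond 2. In 423 of the 606 (69.8%) the groups did not overlap, against 1114 of all 24252 genes (4.59%). Of the protein-coding genes tested, 524 of 15421 (3.4%) passed, and of the others 82 of 8831 (0.929%). The fit took a spread common to all 16 samples, which is smaller than that of these 9. Fitted on the 9 samples alone, 37 of 21966 genes passed (0.168%, 13 or 0.0592% higher and 24 or 0.109% lower), all among the 606. With a spread fitted by genotype (limma voom), 51 genes passed (0.21%, 26 or 0.107% higher and 25 or 0.103% lower), also all among the 606. Of the increases in Vcam1, Rbp7, Igfbp2, Igfbp3, Krt5 and Cyp26a1, only that of Rbp7 passed in either of these fits. The others had an edgeR adjusted p of 0.0588 to 0.0733 in the 9 samples alone and 0.0721 to 0.217 with limma voom. The share of higher genes among the calls was 41.1%, 30.2% with upper-quartile scaling (191 of 632) and 55.6% with limma on the deposited normalized values (271 of 487). Leaving out a replicate gave 256 calls (double mutant replicate 4), 264 (double mutant replicate 5) and 294 (double mutant replicate 1) at the low end and 975 (HER2 mutant replicate 3) at the high end. Without HER2 mutant replicates 1 and 4, 716 genes passed, of which 282 were among the 606, and 20 of the 24 named genes passed, while Igfbp2 (adjusted p 0.0951), Dio2 (0.156), Atp6v0a4 (0.0784) and Krt5 (0.0615) were lost. With the chromosome offset, 491 genes (2.02%) passed, of which 422 were among the 606, and 23 of the 24 passed, while Efemp1 was lost (0.0512).

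**Figure D2:**
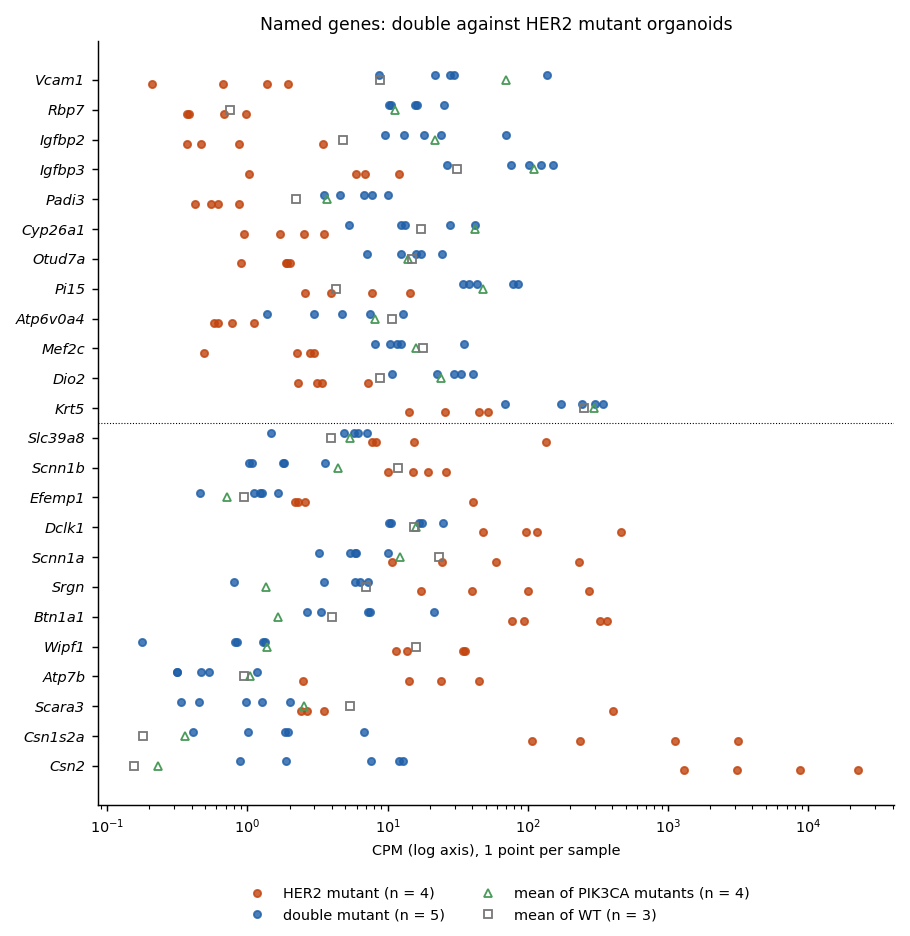
CPM (log axis) in each HER2 mutant (n = 4) and double mutant (n = 5) sample for the 12 genes with the largest increases (above the dotted line) and the 12 with the largest decreases (below it) under the naming rule, with the means of PIK3CA mutant and WT samples as open symbols. The Csn2 points of both genotypes lie furthest apart, and in Scara3, Dclk1, Efemp1 and Slc39a8 HER2 mutant replicate 2 lies alone at the right.

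By the rule for named genes, the caseins Csn2 and Csn1s2a had the largest decreases. Csn2, which encodes beta-casein (ENSMUSG00000063157, chromosome 5, 87692624 to 87699630), had 3090, 1300, 22700 and 8740 CPM in HER2 mutant replicates 1 to 4. In double mutant replicates 1 to 5 it had 12.8, 12.1, 0.883, 7.57 and 1.87 CPM. Every double mutant sample was below every HER2 mutant sample and above the PIK3CA mutant (0.124 to 0.421 CPM) and WT samples (0.035 to 0.334 CPM). The log2 fold change was -10.31 (SE 1.07, edgeR adjusted p 0.000558), and the call held in the 9 samples alone (0.0191), with a spread by genotype (4.45e-05), with the chromosome offset (0.000424) and when any of the 9 replicates was left out. In bulk samples such as these, fewer cells of a type and less RNA per cell cannot be told apart.

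Csn1s2a, an alpha-S2 casein gene (ENSMUSG00000061937, chromosome 5, 87774567 to 87788797), had 237, 107, 3130 and 1120 CPM in the HER2 mutant samples and 6.81, 1.85, 0.412, 1.94 and 1.01 CPM in the double mutant samples. The order of the HER2 mutant samples was that of Csn2, with replicate 3 highest and replicate 2 lowest, and its log2 fold change was -8.89 (SE 1.07, edgeR adjusted p 0.00098). Btn1a1, which encodes butyrophilin of the milk fat globule membrane (chromosome 13, 23456992 to 23465901), had 77, 93.4, 326 and 364 CPM against 21.3, 3.34, 2.65, 7.46 and 7.21 CPM. Its groups did not overlap (log2 fold change -4.68, SE 0.631, edgeR adjusted p 0.00198). Glycam1, a mucin-like protein secreted in milk (chromosome 15, 103562759 to 103565081), had 1.36, 6.53, 104 and 8.76 CPM in the HER2 mutant samples and 0 to 0.148 CPM in the double mutant samples (fitted log2 fold change -8.82, edgeR adjusted p 0.00217). Because several of its double mutant counts are at or below 3, the size of that change depends on the fit.

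The caseins did not move as a block. Csn3, which encodes kappa-casein, had 16400, 3520, 12700 and 16100 CPM in the HER2 mutant samples and 20600, 10500, 5820, 13500 and 15200 CPM in the double mutant samples. Its groups overlapped almost wholly, with a log2 fold change of 0.11 (SE 0.397, edgeR adjusted p 0.93) whose sign changed with the samples left out and with the chromosome offset. Csn1s1, an alpha-S1 casein gene, had 3590, 1290, 13100 and 8160 CPM against 2150, 2510, 1290, 1940 and 1300 CPM. HER2 mutant replicate 2 lay within the double mutant range, and the log2 fold change of -1.83 did not pass (SE 0.568, edgeR adjusted p 0.0951), although it passed without HER2 mutant replicates 1 and 2 (0.0273). Csn1s2b (log2 fold change -3.17, adjusted p 0.0845), Wap (-1.56, 0.472) and Lalba (-1.22, 0.611) overlapped between the groups, and the sign of Wap and of Lalba changed when HER2 mutant replicate 3 or replicate 1, respectively, was left out. These 5 genes were named after their values were seen.

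Of the 18 genes listed for milk proteins and secretion, 6 were lower (Csn2, Csn1s2a, Glycam1, Btn1a1, Xdh and Cidea), 1 was higher and 11 did not pass. The share of all genes tested that passed, 2.5%, is the one to set beside this and the later list counts. The median log2 fold change of the list was -1.12, against -0.02 over all genes tested. Xdh, which encodes xanthine dehydrogenase of the fat globule coat, had 613, 709, 586 and 307 CPM against 240 to 317 CPM, so that HER2 mutant replicate 4 lay among the double mutants (log2 fold change -1.03, adjusted p 0.0106). Cidea, a lipid droplet protein gene, was at 50.9 CPM in HER2 mutant replicate 2 and at 0.512 to 0.868 CPM in the other HER2 mutant samples, against 0.314 to 0.622 CPM in the double mutants. The gene that rose was Spp1, which encodes the secreted phosphoprotein osteopontin. It had 646, 1290, 4200 and 2370 CPM in the HER2 mutant samples and 4580 to 8530 CPM in the double mutant samples (log2 fold change 1.67, edgeR adjusted p 0.0414). In the 9 samples alone, 4 of these 7 calls held (Csn2, Csn1s2a, Glycam1 and Btn1a1), while Xdh, Cidea and Spp1 did not pass. With a spread by genotype 3 held (Csn2, Csn1s2a and Btn1a1), and Glycam1 did not pass (limma voom adjusted p 0.249).

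**Figure D3:**
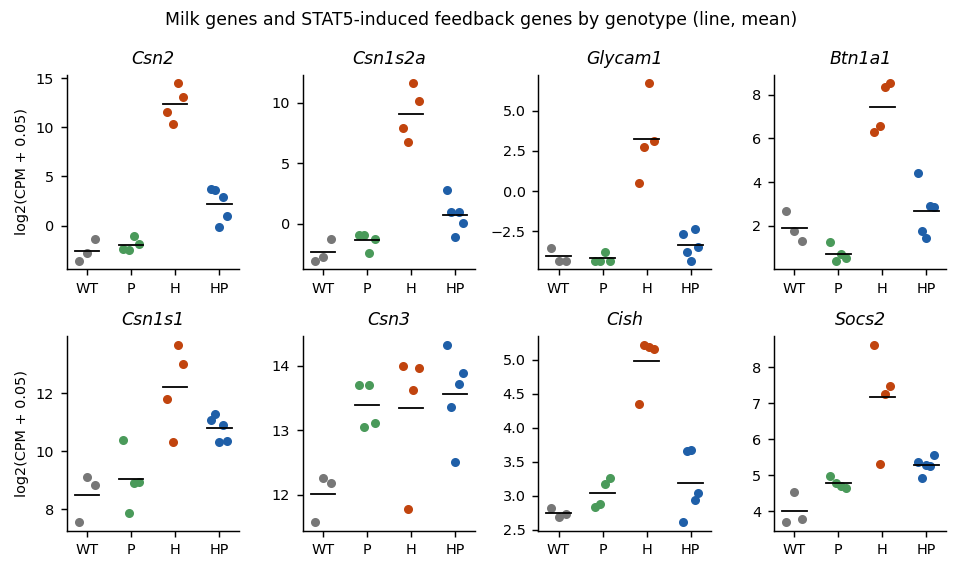
log2(CPM + 0.05) of 6 milk genes and of the STAT5-induced genes Cish and Socs2 in each sample of the 4 genotypes, with the mean as a line and a separate axis for each gene. Csn2, Csn1s2a, Glycam1, Btn1a1 and Cish are higher in all HER2 mutant than in all double mutant samples, whereas the groups overlap in Csn1s1, Csn3 and Socs2.

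Upstream of the milk genes, the genes of the prolactin pathway itself were mostly without a call, while the feedback genes Cish and Socs2 fell and Socs1 (log2 fold change 0.5, adjusted p 0.181) and Socs3 (-0.15, adjusted p 0.861) did not pass. Cish had 20.3, 37.2, 36.5 and 35.7 CPM in the HER2 mutant samples and 6.08, 12.6, 12.7, 7.63 and 8.17 CPM in the double mutant samples. The groups did not overlap, and the log2 fold change was -1.78 (SE 0.23, edgeR adjusted p 0.0014), a call kept in the 9 samples alone (0.0388). PIK3CA mutant samples had 7.12 to 9.52 CPM of Cish and WT samples 6.42 to 7.01 CPM. Socs2 had 396, 40.0, 154 and 178 CPM against 41.6, 30.3, 39.2, 38.1 and 47.1 CPM, with HER2 mutant replicate 2 inside the double mutant range (log2 fold change -2.29, SE 0.411, edgeR adjusted p 0.00979). Its adjusted p missed the threshold in the 9 samples alone (0.0873) and without HER2 mutant replicates 1 and 4 (0.0598). These were 2 of 18 tested genes of the prolactin, STAT5 and alveolar list, and none rose. Prlr, the prolactin receptor, had 72.2 to 103 CPM in HER2 mutant and 67.7 to 177 CPM in double mutant samples (log2 fold change 0.53, adjusted p 0.253). Stat5a had 130 to 222 CPM against 106 to 165 CPM (-0.43, adjusted p 0.159). Elf5, a transcription factor of alveolar cells, had a mean of 294 CPM in both groups (SD 101, n = 4, and SD 96.1, n = 5), and the sign of its difference varied with the setting.

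Other large decreases included the 3 subunits of the epithelial sodium channel. Scnn1b (ENSMUSG00000030873, chromosome 7, 121865038 to 121918514, which overlaps Cog7) had 19.5, 15.2, 10.1 and 26.2 CPM in the HER2 mutant samples and 3.56, 1.03, 1.08, 1.83 and 1.79 CPM in the double mutant samples. Its groups were apart, and the log2 fold change was -3.25 (SE 0.383, edgeR adjusted p 0.00098), held in the 9 samples alone (0.024). Scnn1a had 24.4, 230, 58.9 and 10.8 CPM against 3.23 to 10.1 CPM (log2 fold change -3.73, SE 0.672, edgeR adjusted p 0.0103). Scnn1g, named after its values were seen, had 8.26, 2.45, 2.85 and 26 CPM against 0.0196 to 0.496 CPM (-5.22, SE 0.756, edgeR adjusted p 0.00313). The calls of Scnn1a and Scnn1g were lost in the 9 samples alone (0.0812 and 0.0588).

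Wipf1, which encodes a partner of the actin regulator WASP (ENSMUSG00000075284, chromosome 2, 73429610 to 73529734), had 35.7, 11.5, 13.8 and 34.5 CPM in the HER2 mutant samples and 0.816, 1.34, 0.177, 1.29 and 0.836 CPM in the double mutant samples. PIK3CA mutant samples were at 0.764 to 2.5 CPM and WT samples at 9.95 to 26.5 CPM, so the samples with a PIK3CA mutation were low in either background. The log2 fold change was -4.74 (SE 0.566, edgeR adjusted p 0.00098). Atp7b, a copper-transporting ATPase, had 14.3, 2.47, 44.5 and 24.2 CPM against 0.314 to 1.17 CPM (log2 fold change -5.24, SE 0.679, edgeR adjusted p 0.0014). Srgn, which encodes the secretory granule proteoglycan serglycin, had 100, 40.1, 272 and 17.3 CPM against 0.798 to 7.28 CPM (-4.5, SE 0.753, edgeR adjusted p 0.00713). Wipf1 and Atp7b held in the 9 samples alone (edgeR adjusted p 0.0191 and 0.035), and Srgn did not (0.0623). With a spread by genotype, Wipf1 and Srgn passed (limma voom adjusted p 0.0125 and 0.0485), and Atp7b did not (0.0508).

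In a further 4 of the 12 genes with the largest decreases, HER2 mutant replicate 2 was far above the other HER2 mutant samples. Scara3, a scavenger receptor family gene, had 406 CPM in that sample, 2.4 to 3.49 CPM in the other HER2 mutants and 0.336 to 2 CPM in the double mutants (log2 fold change -6.67, edgeR adjusted p 0.0239). Efemp1, a matrix protein gene, had 40.5 CPM there, 2.19 to 2.58 CPM in the other HER2 mutants and 0.461 to 1.64 CPM in the double mutants (-3.38, adjusted p 0.0497). Slc39a8, a zinc and manganese transporter gene, had 134 CPM there, 7.68 to 15.5 CPM in the others and 1.47 to 7.07 CPM in the double mutants (-3.02, adjusted p 0.0367). Dclk1, a microtubule-associated kinase gene that overlaps a predicted gene, had 464 CPM there, 48.2 to 116 CPM in the others and 10.3 to 25 CPM in the double mutants (-3.5, adjusted p 0.00393). Without HER2 mutant replicates 1 and 2, the call of Dclk1 held (0.00126), while those of Scara3 (0.391), Efemp1 (0.494) and Slc39a8 (0.196) were lost.

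Of the genes that rose, Rbp7, a cellular retinol-binding protein gene (ENSMUSG00000028996, chromosome 4, 149449687 to 149454978), had the smallest adjusted p. It had 0.679, 0.385, 0.979 and 0.368 CPM in the HER2 mutant samples and 25.2, 16.3, 10.2, 10.5 and 15.7 CPM in the double mutant samples. The groups did not overlap, and the log2 fold change was 4.69 (SE 0.496, edgeR adjusted p 0.000558), held in the 9 samples alone (0.00507), with a spread by genotype (0.00744) and with the chromosome offset (0.000535). PIK3CA mutant samples had 8.64 to 13.3 CPM and WT samples 0.267 to 1.48 CPM.

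Otud7a, a deubiquitinase gene (ENSMUSG00000033510, chromosome 7, 63444751 to 63759028), had 2.02, 0.906, 1.91 and 1.88 CPM against 17.3, 7.15, 12.4, 15.8 and 24.3 CPM (log2 fold change 3.2, SE 0.367, edgeR adjusted p 0.00098). Here WT (9.39 to 21.8 CPM) and PIK3CA mutant samples (11.2 to 16.4 CPM) were both at the level of the double mutants, so the HER2 mutants were the low group. Padi3, an enzyme that converts arginine residues to citrulline (ENSMUSG00000025328, chromosome 4, 140785365 to 140810648), had 0.868, 0.617, 0.423 and 0.553 CPM against 6.81, 3.52, 4.57, 7.74 and 10.1 CPM (3.4, SE 0.466, edgeR adjusted p 0.00217). Igfbp3, which binds insulin-like growth factors (ENSMUSG00000020427, chromosome 11, 7206086 to 7213923), had 1.02, 5.96, 6.88 and 12 CPM against 151, 26.7, 75.6, 102 and 124 CPM (3.89, SE 0.614, edgeR adjusted p 0.0054). The groups of all 3 genes were apart. Otud7a and Padi3 held in the 9 samples alone (0.0192 and 0.0191), and Igfbp3 did not (0.0588). With a spread by genotype, Otud7a passed (limma voom adjusted p 0.0444), and Padi3 (0.0842) and Igfbp3 (0.0721) did not.

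Vcam1, an adhesion molecule of the immunoglobulin family (chromosome 3, 116109949 to 116129688), had the largest increase by the same rule. It had 0.207, 1.37, 0.668 and 1.94 CPM in the HER2 mutant samples and 27.7, 8.64, 136, 21.6 and 29.9 CPM in the double mutant samples, of which replicate 3 was highest (log2 fold change 5.41, SE 0.867, edgeR adjusted p 0.00606). Igfbp2 had 0.368 to 3.45 CPM against 9.55 to 70.2 CPM (4.4, SE 0.898, edgeR adjusted p 0.0194). Pi15, a secreted peptidase inhibitor gene, had 2.58 to 14.4 CPM against 34.5 to 84.5 CPM (2.96, adjusted p 0.0104). Mef2c, a transcription factor gene, had 0.49 to 2.99 CPM against 8.17 to 35 CPM (2.87, adjusted p 0.00751). Dio2, which activates thyroid hormone, had 2.31 to 7.3 CPM against 10.8 to 40.8 CPM (2.76, adjusted p 0.0396), a call lost in 7 of the 9 fits that left out a replicate. Atp6v0a4, a proton pump subunit gene that overlaps a protein-coding gene, had 0.579 to 1.11 CPM against 1.38 to 12.9 CPM (2.93, adjusted p 0.0239). Of these 6 genes, Dio2 passed in the 9 samples alone (0.046), and the others had adjusted p of 0.0588 to 0.0846 there. With a spread by genotype none of the 6 passed (limma voom adjusted p 0.0592 to 0.526).

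In the retinoid list, 2 of 19 tested genes rose (Rbp7 and Cyp26a1) and 1 fell (Stra6), and the median log2 fold change was -0.12. With edgeR, 11 of the 19 had an unadjusted p under 0.05, and 9 had a positive log2 fold change. Cyp26a1 (chromosome 19, 37697798 to 37701536), whose window before the gene start is shown above, had 0.943, 2.54, 3.49 and 1.7 CPM in the HER2 mutant samples and 27.9, 5.29, 42, 12.5 and 13.4 CPM in the double mutant samples. The groups did not overlap, the log2 fold change was 3.22 (SE 0.547, edgeR adjusted p 0.00751), and the call was lost in the 9 samples alone (0.0688). WT samples had 13.4 to 23.7 CPM and PIK3CA mutant samples 25.8 to 60.1 CPM. Stra6, the receptor that takes up retinol from its plasma carrier, had 13.2, 0.848, 1.16 and 10.4 CPM against 0.117 to 0.369 CPM (-4.59, SE 0.9, edgeR adjusted p 0.0156), and the call was lost without HER2 mutant replicates 1 and 4, its high samples (0.212). The retinoic acid receptor gene Rarb was lower in every double mutant than in every HER2 mutant sample, at 0.314 to 0.755 CPM against 0.957 to 2.37 CPM, without passing (-1.37, adjusted p 0.0994).

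Of 16 tested ErbB receptor and ligand genes, 2 were higher (Egfr and Nrg1) and 3 lower (Erbb2, Erbb3 and Grb7). Egfr had 135, 99.8, 124 and 112 CPM against 200, 184, 165, 152 and 161 CPM (log2 fold change 0.55, SE 0.117, edgeR adjusted p 0.0239). Erbb3 had 169, 244, 196 and 217 CPM against 143, 128, 134, 162 and 133 CPM (-0.56, SE 0.12, edgeR adjusted p 0.0239). Nrg1, a ligand of Erbb3, had 21.9 to 38.3 CPM against 47.9 to 93.7 CPM (1.24, adjusted p 0.0458), and Grb7, an adaptor that binds activated ErbB receptors, had 41.4 to 60.9 CPM against 26.9 to 37.6 CPM (-0.73, adjusted p 0.0152). The groups of these 4 genes did not overlap, but their calls were lost in the 9 samples alone (adjusted p 0.0619 to 0.179). Egfr also lost its call with the chromosome offset (0.0762), as did Nrg1 (0.0672).

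Among 29 PI3K pathway genes, Pik3ca was the only call, and the list median was -0.01. Pik3r1, its regulatory subunit, had 719 to 1580 CPM against 1140 to 1260 CPM (log2 fold change 0.09, adjusted p 0.849). Of 20 FOXO target and insulin-feedback genes, Foxo1 rose and Pdk4, Irs1 and Erbb3 fell. Foxo1, a transcription factor that AKT inactivates, had 202, 220, 183 and 118 CPM against 267, 289, 367, 552 and 521 CPM (1.14, SE 0.233, edgeR adjusted p 0.0194), a call lost without HER2 mutant replicates 1 and 4 (0.0719). Pdk4, a kinase that restrains pyruvate oxidation, had 3.02, 97.2, 12.5 and 0.798 CPM against 0.0709 to 0.713 CPM (-6.16, SE 1.13, edgeR adjusted p 0.0109). Irs1, an insulin receptor substrate, had 480, 174, 225 and 519 CPM against 102 to 208 CPM (-1.24, adjusted p 0.0409), with HER2 mutant replicate 2 inside the double mutant range, and that call was lost without HER2 mutant replicates 1 and 4 (0.404) and with the chromosome offset (0.0654). Foxo1, Pdk4 and Irs1 did not pass in the 9 samples alone (edgeR adjusted p 0.125, 0.0854 and 0.203). None of 21 ERK feedback and immediate-early genes passed with edgeR, and 4 had an unadjusted p under 0.05. Egr1 had means of 975 CPM (SD 196, n = 4) and 1050 CPM (SD 440, n = 5).

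**Figure D4:**
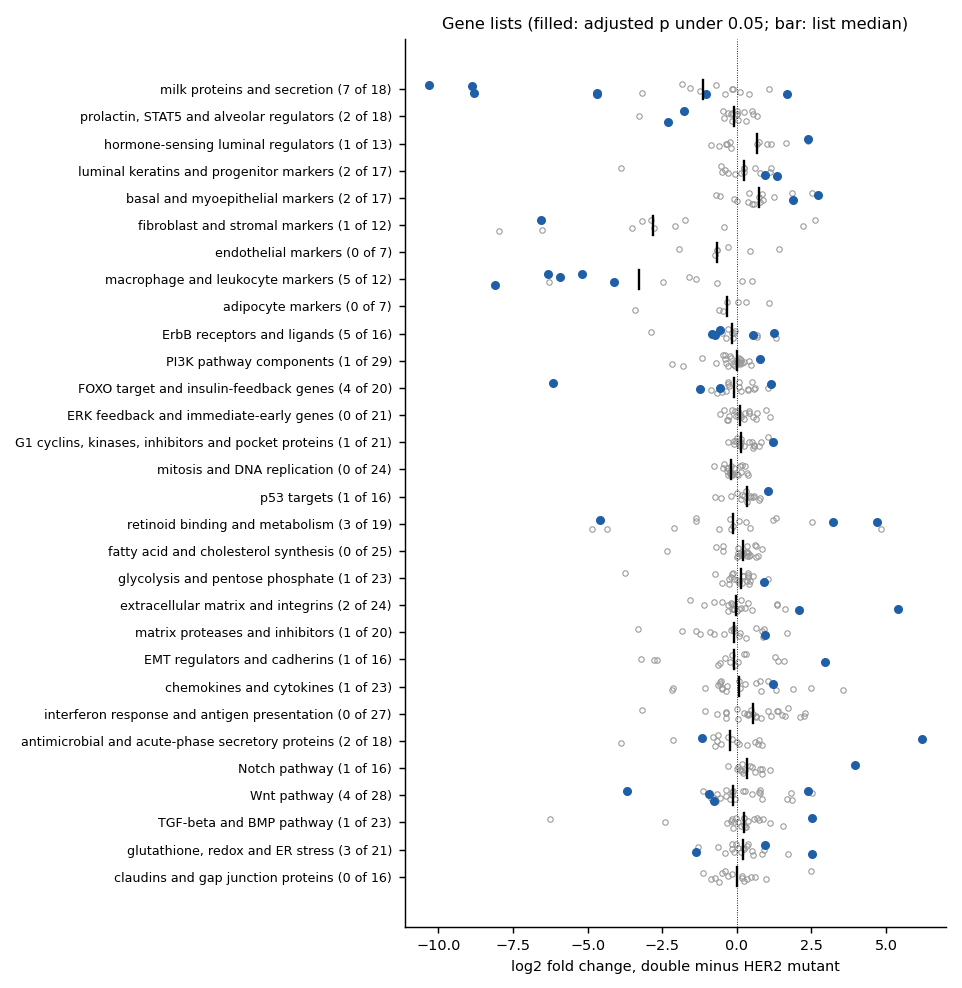
log2 fold change, double minus HER2 mutant, of every tested gene of the 30 lists, with genes past an adjusted p of 0.05 filled, the list median as a bar and the number passed of the number tested beside each name. The milk list reaches -10.31 at Csn2, while its median is -1.12.

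The basal keratin Krt5 and the luminal keratins Krt8 and Krt19 were higher in the double mutant, but most members of both lists had no call. Krt5 had 44.8, 14.1, 52 and 25.6 CPM in the HER2 mutant samples and 171, 69, 245, 346 and 303 CPM in the double mutant samples (log2 fold change 2.73, SE 0.533, edgeR adjusted p 0.0152). The groups were apart, with WT samples at 131 to 345 CPM and PIK3CA mutant samples at 99.6 to 412 CPM. Mylk, the myosin light chain kinase of contractile cells, had 2.02 to 8.56 CPM against 10.6 to 25.6 CPM (1.89, adjusted p 0.0149). These were 2 of 17 basal genes, and 14 of the 17 had a positive log2 fold change, with a median of 0.74. The basal markers Krt14 (log2 fold change 0.51, adjusted p 0.703), Trp63 (1.24, adjusted p 0.21) and Acta2 (0.88, adjusted p 0.414) did not pass, and for all 3 the values of HER2 mutant replicate 1 lay in or above the double mutant range. Krt19 had 110 to 226 CPM against 273 to 503 CPM (1.34, adjusted p 0.0306). Krt8 had 266 to 506 CPM against 504 to 1220 CPM, which touched at HER2 mutant replicate 3 (0.96, adjusted p 0.0493). The calls of Krt19 and Krt8 were lost in 6 and 7 of the 9 fits that left out a replicate. They were 2 of 17 luminal genes, of which 11 had a positive log2 fold change (median 0.25), and the luminal keratins Krt18 (0.61, adjusted p 0.282) and Krt7 (0.77, adjusted p 0.253) did not pass. Foxa1, a regulator of hormone-sensing luminal cells, had 20.1, 11.3, 3.98 and 7.8 CPM against 50.4, 10.1, 62.1, 76 and 80.0 CPM, with double mutant replicate 2 among the HER2 mutants (2.37, adjusted p 0.0322). It was 1 of 13 hormone-sensing genes to pass. In the 9 samples alone, with a spread by genotype, and without HER2 mutant replicates 1 and 2, 0 basal and 0 luminal genes passed (6 of each list had an unadjusted p under 0.05 with edgeR in the fit of 16 samples), and Krt5 had adjusted p of 0.0672, 0.215 and 0.0933.

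Listed markers of other cells that a tumor sample can hold were lower in the double mutant where they passed, and single HER2 mutant samples carried them. Outside the lists, the scavenger receptor gene Cd163 (log2 fold change 1.19, edgeR adjusted p 0.00647) and the T-cell receptor gene Trbc2 (2.81, 0.00713) were higher. Lyz2, a macrophage lysozyme gene with a close paralog, had 142, 58.2, 0.2 and 0.123 CPM in HER2 mutant replicates 1 to 4 and 0.0389 to 0.337 CPM in the double mutants (fitted log2 fold change -8.11, adjusted p 0.0239). The leukocyte gene Ptprc had 2.73, 1.81, 0.0445 and 0.0409 CPM against 0.0369 to 0.105 CPM, and Adgre1 and Tyrobp were likewise above 1 CPM only in HER2 mutant replicates 1 and 2. Of 12 tested leukocyte markers 5 passed, all lower, and 0 passed without those 2 samples. Their fitted log2 fold changes were then 0.16 (Lyz2), 0.59 (Ptprc), 0.72 (Adgre1) and 1.5 (Tyrobp), at levels near 0. Summed over the list, leukocyte markers had 10.1 to 217 CPM in HER2 mutant and 14.3 to 69.3 CPM in double mutant samples. Cd68 gave 65.4 of the 69.3 CPM, in double mutant replicate 2. Of the 12 tested leukocyte markers, 2 had a positive log2 fold change, and the median was -3.29. With edgeR, 9 of them had an unadjusted p under 0.05. Fibroblast markers had 1 call of 12, in Col3a1, at 2.72, 24.3, 0.0668 and 39.5 CPM against 0 to 0.503 CPM (fitted -6.55, adjusted p 0.0493). Col1a1 had 21.4, 181, 22.6 and 352 CPM against 12.3 to 22.5 CPM without passing (-3.17, adjusted p 0.0846), whereas Postn was higher in every double mutant sample, at 396 to 1540 CPM against 7.28 to 343 CPM (2.21, adjusted p 0.116). The summed fibroblast list had 50.7 to 797 CPM in HER2 mutant and 459 to 1720 CPM in double mutant samples. Postn made up most of the double mutant sums, with 1540 of 1720 CPM in replicate 3 and 396 of 459 CPM in replicate 5. Of the 12 tested fibroblast markers, 2 had a positive log2 fold change, and the median was -2.82. With edgeR, 9 of them had an unadjusted p under 0.05. The part of such cells in the other changes was not tested. Without HER2 mutant replicates 1 and 2, 261 of all genes passed, 175 of them among the 606, and 16 of the 24 named genes, Csn2 (7.4e-05), Csn1s2a (7.4e-05), Btn1a1 (0.000619) and Rbp7 (0.00567) among them.

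Genes of mitosis and DNA replication gave no call, and G1 control genes gave 1. None of 24 mitosis and DNA replication genes passed with edgeR, and 0 had an unadjusted p under 0.05. Mki67, a marker of cycling cells, had 271, 34.3, 31.2 and 107 CPM in the HER2 mutant samples and 140, 52.8, 32.4, 78 and 98.1 CPM in the double mutant samples, with the groups interleaved (log2 fold change -0.47, SE 0.601, edgeR adjusted p 0.758). Of 21 genes of G1 control, Rb1 alone passed, although 7 had an unadjusted p under 0.05 and 16 had a positive log2 fold change (median 0.15). Rb1, which overlaps the coding genes Lpar6 and Rcbtb2 and encodes the retinoblastoma protein that holds back the G1 to S transition, had 131, 132, 234 and 94.6 CPM against 277, 297, 391, 403 and 338 CPM (1.2, SE 0.215, edgeR adjusted p 0.00961). It was called with a spread by genotype (0.0307) and not in the 9 samples alone (0.0873). The kinase gene Cdk2 (20.1 to 25.2 against 27.8 to 36.9 CPM, adjusted p 0.0652) and the inhibitor gene Cdkn2b (7.27 to 21 against 23.6 to 32.8 CPM, adjusted p 0.0959) were higher in every double mutant sample without passing. Cdkn1a, the gene of p21, had 57.7 to 263 CPM against 148 to 331 CPM (0.59, adjusted p 0.561). Plk2, a p53 target, had 116, 152, 226 and 131 CPM against 237, 441, 419, 267 and 240 CPM (1.04, adjusted p 0.0239) and was 1 of 16 p53 targets to pass. The call of Plk2 was lost in the 9 samples alone (edgeR adjusted p 0.158).

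Among matrix and adhesion genes, Sparc rose with Vcam1, and these were 2 of 24 tested. Sparc, a matricellular protein gene, had 76.7, 69.8, 64.4 and 99.4 CPM against 266, 270, 615, 240 and 270 CPM (log2 fold change 2.1, SE 0.306, edgeR adjusted p 0.00334). It held in the 9 samples alone (0.0353), with a spread by genotype (0.0485) and with the chromosome offset (0.00513). Serpinb5, the protease inhibitor family gene of maspin, had 31 to 55.4 CPM against 78.1 to 98.2 CPM (0.94, adjusted p 0.00678) and was the only call of 20 proteases and inhibitors. Cdh2, N-cadherin, had 0.113 to 1.97 CPM against 1.59 to 19.7 CPM (2.97, adjusted p 0.0274), while Cdh1, E-cadherin, had means of 541 CPM (SD 141, n = 4) and 645 CPM (SD 154, n = 5) and did not pass (adjusted p 0.548). No other gene of the 16 in the EMT list passed. The chemokine gene Cx3cl1 had 112, 359, 260 and 152 CPM against 443, 426, 561, 531 and 616 CPM (1.22, adjusted p 0.0239), 1 of 23. None of 27 interferon and antigen presentation genes passed with edgeR, although 11 had an unadjusted p under 0.05 and the median was 0.53. Lbp, an acute-phase protein gene, had 681 to 1980 CPM against 365 to 689 CPM (-1.15, adjusted p 0.0489). In the same list of 18, Reg3g, a secreted antimicrobial lectin gene, passed at 0 to 0.0385 CPM, below 3 counts in each HER2 mutant sample, against 0.284, 0, 3.47, 0.48 and 0.311 CPM in the double mutants. Serpinb5, Cdh2, Cx3cl1, Lbp and Reg3g did not pass in the 9 samples alone (edgeR adjusted p 0.0756, 0.173, 0.147, 0.186 and 0.178).

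Of the signaling lists, Notch had 1 call of 16 and Wnt 4 of 28. In the Notch list, 7 genes had an unadjusted p under 0.05 with edgeR. A positive log2 fold change was found for 15 of these 16 (median 0.35). In the Wnt list, 10 genes had an unadjusted p under 0.05 with edgeR, and 12 of 28 were positive (median -0.14). Hey2, a transcription factor gene induced by Notch, had 0.113, 0.347, 0.668 and 0.532 CPM against 14.8, 2.2, 4.77, 4.36 and 6.01 CPM (log2 fold change 3.96, SE 0.585, edgeR adjusted p 0.00379). Dkk3, of the Dickkopf family, had 2.07 to 7.41 CPM against 10.0 to 50.8 CPM (2.4, adjusted p 0.014). Lgr4, a receptor for R-spondins such as the Rspo1 of the medium, had 161, 243, 211 and 164 CPM against 107, 125, 125, 107 and 112 CPM (-0.76, SE 0.131, edgeR adjusted p 0.00806), and the ligand genes Wnt5b (-0.94, adjusted p 0.0381) and Wnt7a (-3.67, adjusted p 0.0401) were lower. Both Wnt genes lie on chromosome 6, which was shifted up in HER2 mutant replicates 1 and 4. Both calls were lost with the chromosome offset (0.116 and 0.0536) and in the 9 samples alone (0.183 and 0.159). Without HER2 mutant replicates 1 and 4 both calls held (edgeR adjusted p 0.0147 and 0.023). Of the HER2 mutant samples, replicate 1 was lowest for Wnt5b (29.6 CPM) and for Wnt7a (0.396 CPM). The highest was replicate 4 for Wnt5b (76.2 CPM) and replicate 3 for Wnt7a (3.96 CPM). The call of Wnt5b, which overlaps Fbxl14, was lost in 7 and that of Wnt7a in 5 of the 9 fits that left out a replicate. Bmp2 had 0.178 to 1.82 CPM against 3.08 to 7.57 CPM (2.51, adjusted p 0.0233) and was 1 of 23 genes of the TGF-beta and BMP list. Hey2, Dkk3, Lgr4 and Bmp2 also did not pass in the 9 samples alone (edgeR adjusted p 0.0583, 0.0873, 0.0812 and 0.154). With a spread by genotype they did not pass either (limma voom adjusted p 0.178, 0.192, 0.0625 and 0.0968).

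Metabolic and stress genes gave few calls but some with tight groups. Tkt, transketolase of the pentose phosphate pathway, had 480, 479, 581 and 418 CPM against 920, 892, 887, 997 and 908 CPM (log2 fold change 0.91, SE 0.113, edgeR adjusted p 0.00118). It was 1 of 23 in its list, while Gapdh (0.33, adjusted p 0.755) and Aldoa (0.17, adjusted p 0.843) of glycolysis overlapped. Nqo1, a quinone reductase of the oxidative stress response, had 24, 31.1, 63.8 and 10.6 CPM against 241, 181, 165, 180 and 163 CPM (2.52, SE 0.363, edgeR adjusted p 0.00306). Herpud1, of the endoplasmic reticulum stress response, had 68.2 to 106 CPM against 132 to 194 CPM (0.93, adjusted p 0.00713). Tkt, Nqo1 and Herpud1 held with a spread by genotype (0.00274, 0.00274 and 0.0485) and were above the threshold in the 9 samples alone (0.0583, 0.0583 and 0.0756). Gpx3, a secreted glutathione peroxidase gene, was lower (-1.36, adjusted p 0.0413). None of 25 fatty acid and cholesterol synthesis genes passed with edgeR (5 with an unadjusted p under 0.05), and Scd1 had means of 9020 CPM (SD 5250, n = 4) and 11400 CPM (SD 3740, n = 5). Claudins and gap junction genes had 0 calls of 16 (3 unadjusted). Without HER2 mutant replicates 1 and 4, the list members Krt8 (adjusted p 0.201), Col3a1 (0.0784), Nrg1 (0.103), Plk2 (0.128), Reg3g (0.153) and Dkk3 (0.0652) also lost their calls, and with the chromosome offset Krt8 (0.054), Col3a1 (0.0577) and Lbp (0.0786) did. Over the 30 lists together, 51 of 549 tested genes passed (9.27%, 26 or 4.73% higher and 25 or 4.55% lower). Of all genes tested, 2.5% passed, 1.03% higher and 1.47% lower. Since the lists were made with earlier results known, their share is a description of them only.

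Some genes were called in more than 1 of the analyses that estimate the spread or the chromosome shifts differently, and they are named with their values already seen. Of the 37 genes called in the 9 samples alone, 19 were also called with a spread by genotype and with the chromosome offset. The 14 lower genes were Csn2, Csn1s2a, Btn1a1, Cish, Scnn1b, Wipf1, Amigo2, Mtcl1, Bmf, Slc45a3, Lpcat4, Slc41a2, Adamts7 and Clmn, and the 5 higher genes were Pik3ca, Rbp7, Otud7a, Sparc and Cd163. Bmf, a cell-death gene of the BCL2 family, had 70.8, 43.8, 62.2 and 92.1 CPM in the HER2 mutant samples and 11.7, 24.9, 12.5, 15.3 and 12.7 CPM in the double mutant samples (log2 fold change -2.12, SE 0.231, edgeR adjusted p 0.000595). Lpcat4, a lysophospholipid acyltransferase gene, had 88.8, 45.3, 73.8 and 65.9 CPM against 14.9, 13.7, 22.1, 20.6 and 19.4 CPM (-1.91, SE 0.229, edgeR adjusted p 0.00098). Cd163, a scavenger receptor gene, had 29.5, 21, 20 and 20.7 CPM against 49.6, 46.9, 48.5, 61.1 and 54.7 CPM (1.19, SE 0.194, edgeR adjusted p 0.00647), and WT samples had 3.57 to 7.62 CPM. All groups of these 3 genes were apart. Cd36, a fatty acid transporter gene on chromosome 5, had the smallest adjusted p of the 37 in the 9 samples alone (0.00274). It had 9.34, 4.59, 13 and 30.2 CPM in the HER2 mutant samples and 0 to 0.0393 CPM, below 3 counts, in each double mutant sample. With a spread by genotype Cd36 did not pass (limma voom adjusted p 0.106).

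**Figure D5:**
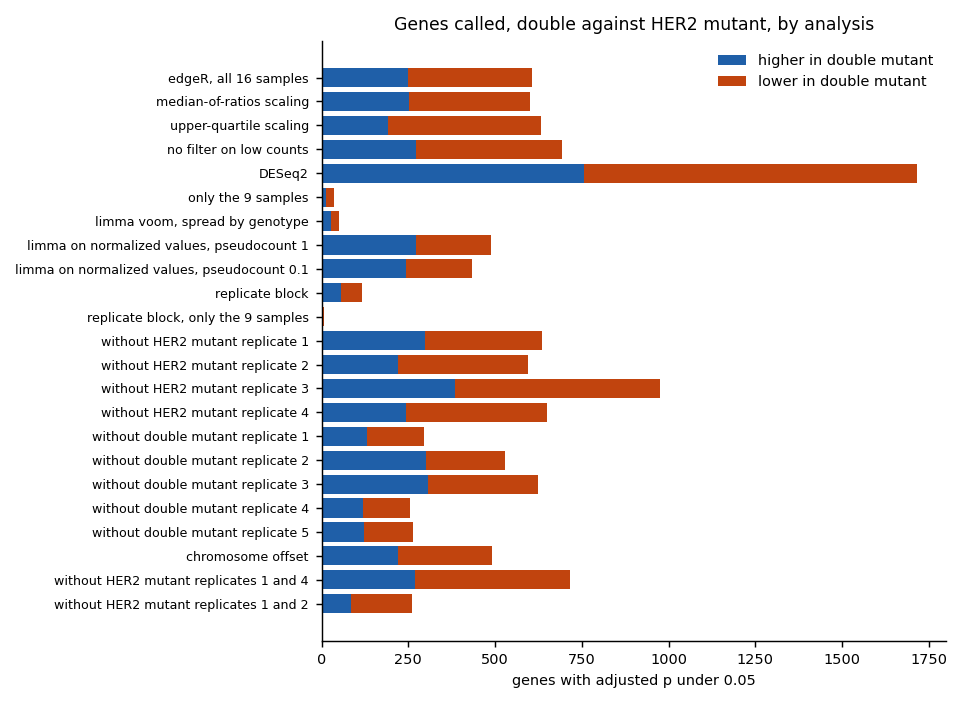
Number of genes called higher and lower in the double mutant under each analysis, as stacked bars from 0. The fit of all 16 samples called 606 genes, the fit of the 9 samples alone 37 and the fit with a spread by genotype 51.

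PIK3CA mutant and WT samples share no sample with this comparison and show the same mutation without the HER2 mutation. In that contrast 1096 genes passed (4.52%), 362 higher (1.49%) and 734 lower (3.03%), with the difference of source tissue included. Of the 606 genes called here, 429 (70.8%) had the same sign there, against 56.4% of all genes tested. Past the threshold in the same direction were 94 of the 606 (23 higher and 71 lower, together 15.5%), and 12 passed in the opposite direction. Of all 24252 genes tested, 820 (3.38%) were called there with the sign they had here and 276 with the opposite sign. Rbp7 (log2 fold change 3.93, adjusted p 0.0011), Pi15 (3.5, adjusted p 0.00419), Cd163 (3.4, adjusted p 8.41e-06), Wipf1 (-3.51, adjusted p 0.00295) and Cd36 (-8.07 as fitted, adjusted p 0.000315) passed in both. Csn2 (0.49, adjusted p 0.904), Csn1s2a (0.99, adjusted p 0.78) and Otud7a (-0.08, adjusted p 0.942) did not pass there. The difference between both contrasts was tested as an interaction, which passed for 257 of 24252 genes (1.06%) and for 83 of the 606 (13.7%), whose own contrast is part of it. Without WT replicate 3 the interaction passed for 54 genes and the PIK3CA mutant and WT contrast for 396. It passed for Csn2 (-10.8, adjusted p 0.0089), Csn1s2a (-9.88, adjusted p 0.012), Cish (-2.08, adjusted p 0.012), Otud7a (3.28, adjusted p 0.0081), Nqo1 (3.27, adjusted p 0.0089), Bmf (-2.54, adjusted p 0.00522) and Rb1 (1.87, adjusted p 0.012), and not for Rbp7 (0.76, adjusted p 0.666), Wipf1 (-1.23, adjusted p 0.536) or Cd36 (-0.86, adjusted p 0.819). In WT and PIK3CA mutant samples, Csn2 was at only 0.035 to 0.421 CPM and Csn1s2a at 0.0699 to 0.475 CPM. A fall of the size seen in the HER2 mutant background could not have been measured there. For both caseins the interaction therefore mostly repeats the difference between double and HER2 mutants. Cd163 had a smaller increase in the HER2 mutant background (interaction -2.21, adjusted p 0.00521). In mean level, PIK3CA mutant samples were nearer to the double mutant than to the HER2 mutant for 480 of the 606 genes (79.2%, against 58.5% of all genes), and WT samples for 324 (53.5%, against 49.2%). As for Otud7a, WT and PIK3CA mutant means were far above the HER2 mutant mean for Mef2c (18 and 15.8 against 2.13 CPM) and Sparc (314 and 367 against 77.6). The same held for Hey2 (9.22 and 9.91 against 0.415 CPM), Nqo1 (202 and 120 against 32.4) and Rb1 (575 and 362 against 148). For Rbp7 the WT mean was 0.746 CPM against 0.603 CPM in the HER2 mutants.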

How the data were processed

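RNA was sequenced from 16 organoid samples, of which 9 form this comparison. Per the submitters' processing notes, bcl2fastq 2.20, STAR 2.0.4b, Subread featureCounts 1.4.5, DESeq2 1.33.5 and the build mm10 were used. Strandedness was not given in the sources used here, so counts of overlapping genes are uncertain (among those described, also Stra6, Irs1, Stat5a and Adamts7). The authors deposited whole-number read counts per Ensembl gene and a normalized signal table, which a check showed to be the count divided by a size factor per sample (largest relative difference 5.49e-10). Of 55774 entries, 287 repeated an identifier and were dropped.

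Genotypes were taken from the sample titles. Genes passing filterByExpr (24252) were tested with edgeR 4.0.16 in R 4.3.3, with TMM scaling and the quasi-likelihood test (two-sided) in 1 fit of all 16 samples, and Benjamini-Hochberg adjusted p under 0.05 was called. The SE was the log2 fold change divided by the square root of F. Alternatives used limma 3.58.1, DESeq2 1.42.0, other scalings, other samples and a replicate block. The chromosome offset and the fits without 2 HER2 mutant samples were added after the data had been seen. As a floor of detection, 3 counts correspond to 0.0531 to 0.0659 CPM in these 9 samples, and this covers counting error only.

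Members were taken by their labels alone, and earlier results of these data were known when members and gene lists were chosen. Genes named are the 12 largest changes each way among called genes whose groups do not overlap, whose mean log2 CPM reaches 1 and whose symbol is no clone name (284 were eligible), plus Erbb2, Pik3ca and of each list up to 4 called members or, with fewer than 2 called, the 2 most abundant. Other genes described were chosen after their values were seen. Of the 24 genes with the largest changes, 10 overlap another annotated gene. Positions are from GENCODE M21 (GRCm38) and promoters from RefSeq.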

Additional observations from a re-analysis of the deposited data

Results flagged for a closer look

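In groups of 4 or 5 samples, a sample was noted where its gap to the nearest other sample took up more of the group's range than a Dixon test at 95% allows. For independent groups of normally distributed values, chance gives this in about 1 in 20 groups. CPM values were taken without a log transform, and the chromosomes of a sample are not independent, so that rate may not apply here. Of 52 groups of CPM values of the named genes, 12 met this. HER2 mutant replicate 2 was the outlying sample for Scara3 (406 CPM), Dclk1 (464 CPM), Slc39a8 (134 CPM), Efemp1 (40.5 CPM) and, on the low side, Otud7a (0.906 CPM). HER2 mutant replicate 3 was so for Igfbp2 (3.45 CPM). Double mutant replicate 3 was the high sample for Vcam1 (136 CPM), Igfbp2 (70.2 CPM) and Mef2c (35 CPM), and double mutant replicate 1 for Csn1s2a (6.81 CPM), Btn1a1 (21.3 CPM) and Atp7b (1.17 CPM).

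Of 40 groups of chromosome medians, 13 had an outlying sample, and in 12 of them it was HER2 mutant replicate 1. Its median log2 difference was 0.33 on chromosomes 1 and 12, 0.32 on chromosome 7, 0.29 on chromosome 19 and 0.54 on chromosome X. It was -0.31 on chromosome 3, -0.27 on chromosome 14, -0.22 on chromosome 13, -0.21 on chromosomes 9 and 17, -0.19 on chromosome 10 and -0.16 on chromosome 8. The remaining one was double mutant replicate 4 on chromosome 6, at -0.04.

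For 6 of 26 genes tested, the change with the PIK3CA mutation differed between the HER2 mutant and the WT background by the edgeR interaction test. The interaction estimates on the log2 scale were 3.28 for Otud7a, 3.05 for Mef2c, -10.8 for Csn2, -9.88 for Csn1s2a, -5.41 for Atp7b and -3.54 for Dclk1. The WT samples came from normal breast, so tissue source enters these values and cannot be told apart from genotype. Csn2 and Csn1s2a were at or below 0.475 CPM in every WT and PIK3CA mutant sample. A fall as large as in the HER2 mutant background could not have been measured from there. Of the 26 genes, 24 were chosen for large changes between double and HER2 mutants, and that contrast is part of the interaction. The choice favors a call. The 6 of 26 therefore cannot be weighed against the 257 of 24252 genes (1.06%) with an interaction call among all genes tested.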

How the results depend on the processing

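The number of genes called between double and HER2 mutants was 606, and it was 1715 with DESeq2, 51 with a spread by genotype and 37 with the 9 samples alone. Leaving out a replicate gave 256 to 975 genes, with 256 without double mutant replicate 4, 264 without replicate 5, 294 without replicate 1 and 975 without HER2 mutant replicate 3. It was 261 without HER2 mutant replicates 1 and 2. The 24 named genes gave 10 calls in the 9 samples alone, 9 with a spread by genotype and 19 to 24 when a replicate was left out. Of all list genes tested, 51 were called in the fit of 16 samples. With DESeq2 98 list genes were called, in the 9 samples alone 8, and with a spread by genotype 13. The number was 28 without HER2 mutant replicates 1 and 2. Leaving out a replicate gave 28 to 66 list genes (28, 29 and 31 without double mutant replicates 5, 4 and 1). PIK3CA mutant against WT gave 1869 calls with DESeq2 and 4373 with a spread by genotype, and 396 to 1043 when a replicate was left out (396 and 682 without WT replicates 3 and 1, 686 and 655 without PIK3CA mutant replicates 1 and 2). The interaction gave 966 calls with DESeq2 and 54 to 382 when a replicate was left out, with 54 and 117 without WT replicates 3 and 1, 131, 103, 104 and 108 without PIK3CA mutant replicates 1 to 4, and 140 and 145 without double mutant replicates 4 and 5. Same-numbered HER2 and double mutant samples had correlations of their deviations from 0.071 to 0.273, and 2 of 4 HER2 mutant samples correlated best with their own number, so the numbers were not treated as pairs. With the replicate block, 118 genes, 15 named genes and 20 list members were called, 35 for the interaction, and in the 9 samples alone 6, 4 and 1. The 4 named genes called with the replicate block in the 9 samples were all higher ones, so Csn2 and the other named lower genes were not called there, and with the block in all 16 samples Cd163 was not called (edgeR adjusted p 0.0511). The log2 fold change changed sign for Csn3 (-0.2 to 0.29 when a replicate was left out, lowest without HER2 mutant replicate 2, -0.11 without double mutant replicate 1, -0.08 with the chromosome offset, -0.13 without HER2 mutant replicates 1 and 2), for Wap (-2.01 to 1.2, highest without HER2 mutant replicate 3, 0.11 with the replicate block in the 9 samples) and for Lalba (-2.39 to 0.48, highest without HER2 mutant replicate 1, 0.58 without 1 and 4, 0.13 without 1 and 2). For Elf5, at 0 in the fit, it was 0.01 without a filter, 0 in the 9 samples, 0.09 with the offset, -0.19 to 0.21 when a replicate was left out, and 0.41 without HER2 mutant replicates 1 and 4 together. Without HER2 mutant replicates 1 and 2, it was 0.16 for Lyz2, 0.72 for Adgre1, 0.59 for Ptprc and 1.5 for Tyrobp. The cause was not tested, other than fewer samples where samples were left out.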

Other observations

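Further genes called in the 9 samples alone were chosen after their values were seen. Fam20c, a kinase that phosphorylates secreted proteins including caseins, had 21.3, 37.1, 10.1 and 30.1 CPM in the HER2 mutant samples and 6.60, 4.95, 4.06, 4.27 and 3.21 CPM in the double mutant samples (log2 fold change -2.42, SE 0.346, edgeR adjusted p 0.00306). Wnt16, a Wnt ligand gene, had 4.34 to 19 CPM against 1.20 to 2.01 CPM (-2.72, adjusted p 0.00758). Tnfsf10, which encodes the death ligand TRAIL, had 3.58 to 8.43 CPM against 13.2 to 35.1 CPM (2.28, adjusted p 0.00532), and Cdo1, cysteine dioxygenase, had 0.83 to 1.76 CPM against 3.86 to 8.17 CPM (2.35, adjusted p 0.00182). Fgb, the fibrinogen beta chain gene, had 0 to 0.0445 CPM, below 3 counts in each HER2 mutant sample, against 0.462 to 8.22 CPM. Their adjusted p in the 9 samples alone was 0.0353, 0.0404, 0.0404, 0.0306 and 0.0376, in this order. With a spread by genotype none of these genes passed (limma voom adjusted p 0.0655, 0.0749, 0.117, 0.0655 and 0.416). Wnt16, on chromosome 6, also missed the threshold without HER2 mutant replicates 1 and 4 (edgeR adjusted p 0.0537).

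The calls were unevenly spread over chromosomes. Chromosome 4 held 43 of the 249 higher genes (3.03% of its tested genes, against 1.03% of all genes tested). Chromosome 6 held 44 of the 357 lower genes (3.43%, against 1.47% of all genes tested). With the chromosome offset, 17 higher genes on chromosome 4 and 20 lower genes on chromosome 6 were called. Within chromosomes, the median log2 difference in HER2 mutant replicate 1 was 0.681 between 100 and 120 Mb of chromosome 11 and -0.227 between 60 and 80 Mb. On chromosome 16 between 80 and 100 Mb it was -1.045 in HER2 mutant replicate 1 and -0.674 in HER2 mutant replicate 4, and between -0.022 and 0.076 in the double mutants. Erbb2 lies between 80 and 100 Mb of chromosome 11, where the median was 0.193 in HER2 mutant replicate 1 and between -0.008 and 0.025 in the other HER2 mutants.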
